A study of Mus musculus with 6 samples.

Results

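The contractile genes of prostate smooth muscle were described here across all 6 arrays of a study of the mouse prostate. The set holds 10 of the 30819 gene names on the array, of which 20996 were tested, and was chosen by name: Acta2, Actg2, Myh11, Cnn1, Tagln, Lmod1, Smtn, Des, Mylk and Myocd. They are represented by 17 of the 41174 probes of the array, and 16 of the 27858 probes that were tested belong to them. The remaining probe, Acta2 probe 4 (A_52_P644232), was well above background in neither channel on any array.

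RNA of FVB mouse prostate, labelled as ventral, was hybridised on Agilent whole mouse genome arrays in 2 colours. The green channel (Cy3) of each array carried the young wild type RNA, from mice aged 2.5 months. The red channel (Cy5) carried RNA of fl26 mice, 2.5 months old and transgenic for 15-LOX2, a lipoxygenase that oxidises arachidonic acid, of svb9 mice of the same age and transgenic for 15-LOX2 splice variant b, or of wild type mice 15 months old. Each of these 3 groups (fl26, svb9 and old wild type) has 2 arrays, which the design text calls biological replicates from independent sets of samples. Each RNA was a pool: the sample labels give the ventral lobe of 3 mice, the design text gives several lobes of 6 mice joined, and the sources used here do not settle which. The labels name 1 line for each transgene and do not give the promoter that drives it, and do not say whether 1 pool of young wild type RNA served several arrays. The dyes were never swapped, so against young wild type a dye effect and a group effect cannot be told apart. Between groups of the red channel a fixed dye effect cancels.

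Smooth muscle forms sheaths around the prostatic ducts and contracts to expel secretion. Force comes from myosin heavy chain pulling on smooth muscle actin after myosin light chain kinase has phosphorylated the myosin light chain. Calponin, transgelin, leiomodin and smoothelin bind or shape the actin filaments, and desmin forms intermediate filaments that link the contractile units. Most of these genes are switched on together by serum response factor bound to CArG boxes in their promoters, with myocardin as its coactivator. Because pieces of tissue and no sorted cells were used, fewer smooth muscle cells and less RNA per cell cannot be told apart.

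To show the regulatory sequence that these genes are known for, promoters were read from a RefSeq table (GRCm38.p6) that holds Acta2, Cnn1, Lmod1, Smtn, Des and Mylk. Actg2, Myh11, Tagln and Myocd are not in it. The CArG box reads alike on both strands. Over windows of 300 bases around a start, an exact CArG box occurred in 0 of the 6 member promoters and in 1.63% of all 32851 promoters, and a match with 1 mismatch occurred in 2 of the 6 and in 21.1% of all. TATAAA, searched on both strands, occurred in 0 of the 6 and in 13.6% of all, and CACCC, also on both strands, in 5 of the 6 and in 57.5% of all. The promoters of Acta2 and Lmod1, the only members with such matches, are shown 5′ to 3′ over the 250 bases before the start, with the matches to the CArG box at 1 mismatch in capitals. The Acta2 matches begin 84 and 34 bases before the start and the Lmod1 matches 189 and 164 bases before it. The Acta2 window is chr19:34255374-34255623 on the minus strand and the Lmod1 window is chr1:135324563-135324812 on the plus strand.
Acta2: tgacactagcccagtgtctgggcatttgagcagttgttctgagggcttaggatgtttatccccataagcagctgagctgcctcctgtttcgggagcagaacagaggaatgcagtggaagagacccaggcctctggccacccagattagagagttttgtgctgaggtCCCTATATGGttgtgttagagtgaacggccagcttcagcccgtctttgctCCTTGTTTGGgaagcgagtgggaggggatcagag
Lmod1: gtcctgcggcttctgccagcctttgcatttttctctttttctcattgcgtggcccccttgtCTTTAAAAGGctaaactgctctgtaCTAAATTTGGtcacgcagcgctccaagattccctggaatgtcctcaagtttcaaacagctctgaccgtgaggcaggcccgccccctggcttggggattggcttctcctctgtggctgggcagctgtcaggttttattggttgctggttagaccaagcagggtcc
The arrays measured RNA levels only, so a match is a description of the sequence and no measure of factor binding.

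Red signal differed widely between arrays and sets how far the members could be read. Probes well above background in red numbered 27150 and 27831 on fl26 array 1 and svb9 array 1, 17620 on fl26 array 2, 14617 on svb9 array 2, 3218 on old array 1 and 13596 on old array 2. Of the 16 member probes tested, 16 and 15 were well above background in red on fl26 array 1 and svb9 array 1, against 9 on old array 1 and 12 on old array 2. Per the file headers, fl26 array 1 and svb9 array 1 share an extraction date of the scanner software, as do fl26 array 2 with old array 1 and svb9 array 2 with old array 2. On old array 2, 7 of the 16 member spots carried the software's outlier mark and were left out, and 1 was left out on old array 1, whereas no member spot carried it on the fl26 and svb9 arrays. The mark fell on 47.4% of the brightest 5% of red spots on old array 2 and on 25.0% of them on old array 1, against 0.481% to 7.32% on the fl26 and svb9 arrays. Consequently 8 of the 16 member probes have a value on only 1 of the old arrays. No member spot was saturated.

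**Figure D1:**
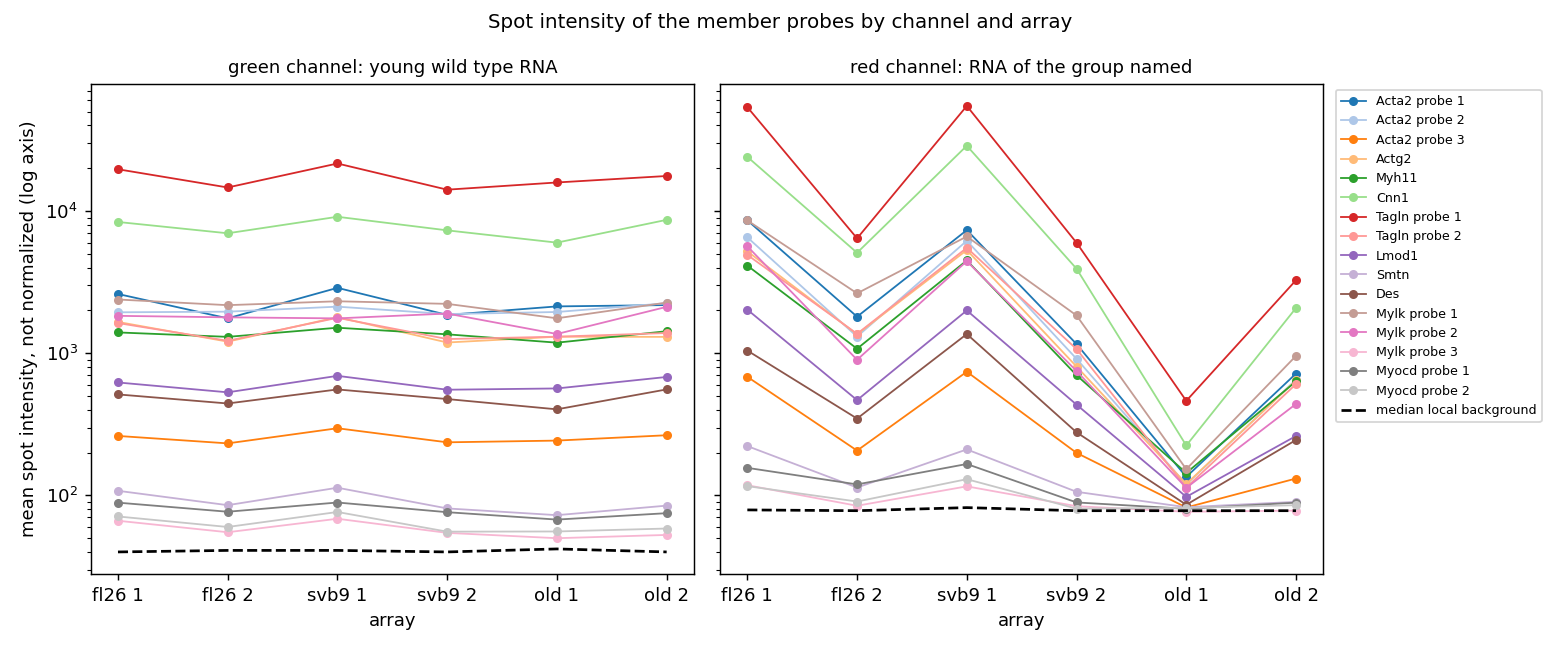
Mean spot intensity, not normalized and on a log axis, of the 16 tested member probes on each array, in the green channel (left) and in the red channel (right), with the median local background as a dashed line. Green intensities stay close from array to array, whereas the red intensity of Tagln probe 1 goes from 54835 on svb9 array 1 to 462 on old array 1.

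Each member gene had a probe well above background in young wild type prostate, but Myocd and Smtn lay close to background. Not normalized, green intensities were 56 to 76 for Myocd probe 2, 68 to 89 for Myocd probe 1 and 73 to 113 for Smtn. The median green background was 40 to 42. In the green channel 15 of the 16 tested probes were well above background on all 6 arrays, and Mylk probe 3 was so on 3. After normalization the green level of Acta2 probe 1 had a log2 intensity of 10.79 ± 0.17 (SD, n = 5 arrays) and that of Des one of 8.76 ± 0.08 (SD, n = 6). Myocd probe 1, which reports the coactivator, had a green log2 intensity of 6.34 ± 0.06 (SD, n = 6). Over the tested probes the SD of the green level lay between 0.04 for Myocd probe 2 and 0.32 for Cnn1. Levels of different probes are not compared, since each probe binds with its own strength.

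No member probe passed the threshold in any of the 6 comparisons as fitted without a replicate block. With the replicate number as a block, 1 did, Mylk probe 2 in old wild type (log2 ratio -0.54, limma adjusted p = 0.030). With limma and Benjamini-Hochberg adjustment over all tested probes, 0 of the 16 member probes had an adjusted p under 0.05 in fl26, where 14 of 27858 probes (0.0503%) were called. In old wild type and in svb9 the count was also 0 of 16, and 0 of all probes (0%) were called there. At an unadjusted p under 0.05 the counts of member probes were 5 of 16 (31.2%) in fl26, beside 10.2% of all probes, and 2 of 16 (12.5%) in svb9, beside 4.45%. For old wild type the count was 3 of 16 (18.8%), beside 11.4% of all probes. The member shares rest on few probes, several of which report the same gene, and all members were measured on the same arrays. Whether the mice of a pool differed cannot be seen, so the p-values measure the spread between pooled samples.

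**Figure D2:**
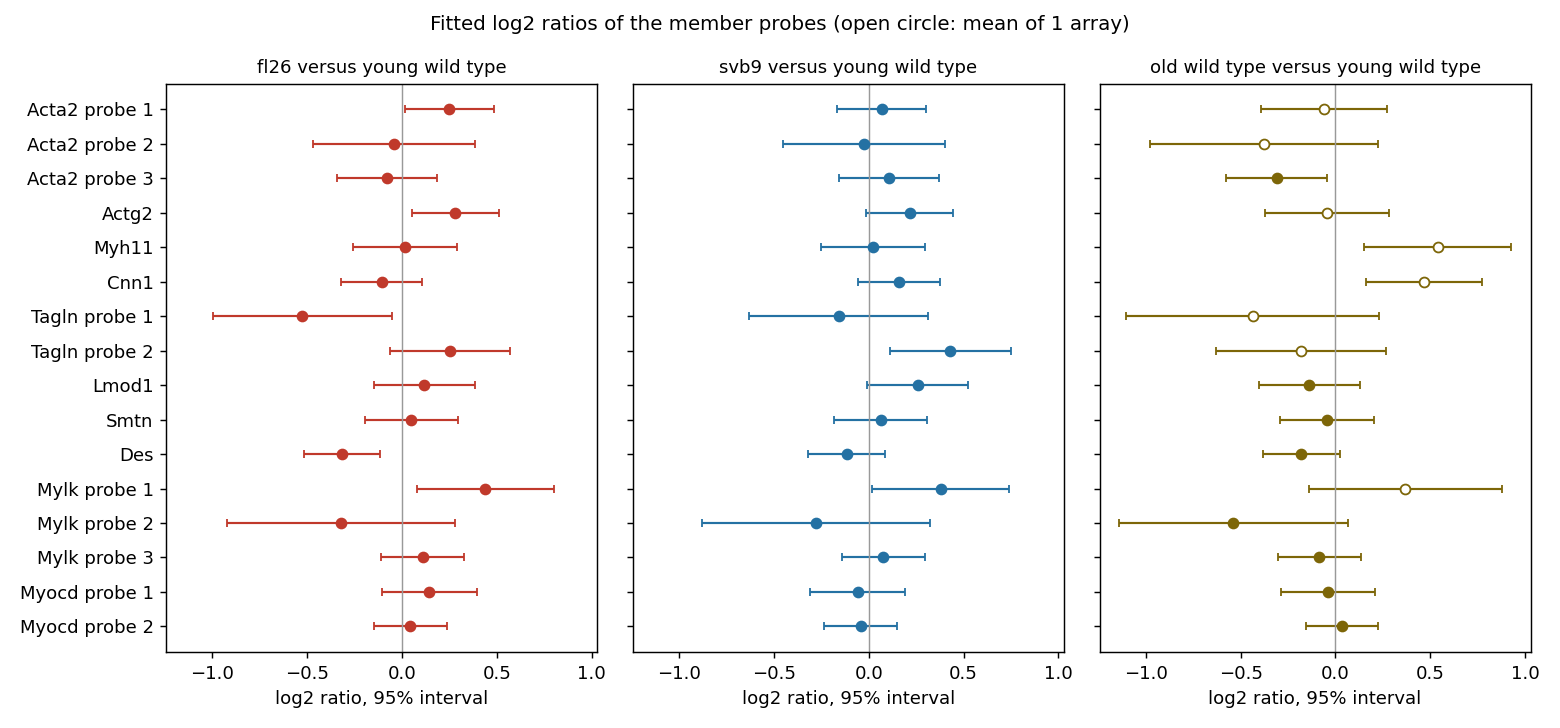
Log2 ratio to young wild type with its 95% interval for each tested member probe in the 3 groups, from limma's spread over all 6 arrays. A filled circle is the mean of 2 arrays and an open circle a value from 1 array. All 16 intervals lie within a 2-fold change either way in both transgenic groups, and 14 of 16 do in old wild type. These counts include probes well above background in red on neither array of the group, whose intervals do not bound a change. They are Smtn, Mylk probe 3 and both Myocd probes in old wild type, and Mylk probe 3 in svb9.

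The intervals give the range around each fitted value under the main processing. In fl26 they ran from -0.998 (Tagln probe 1) to 0.80 (Mylk probe 1) on the log2 scale, and all 16 lay within a 2-fold change either way. In svb9 they ran from -0.88 (Mylk probe 2) to 0.75 (Tagln probe 2), again with all 16 within a 2-fold change. In old wild type they ran from -1.14 (Mylk probe 2) to 0.93 (Myh11), and 14 of 16 lay within it. These intervals hold for each probe singly, leave out any dye effect and do not cover the choice of processing. Nor do they bound a change where a probe was well above background in red on neither array of a group. That holds for Smtn, Mylk probe 3 and both Myocd probes in old wild type, and for Mylk probe 3 in svb9. For Cnn1 in old wild type the interval was 0.16 to 0.77, while its mean was -0.29 with outlier spots kept.

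Smooth muscle actins form the thin filament. Acta2 encodes the alpha actin of vascular and visceral smooth muscle. Acta2 probe 1 (A_51_P450957) had log2 ratios of 0.22 and 0.28 on the fl26 arrays, -0.05 and 0.19 on the svb9 arrays and -0.06 on old array 1. The fl26 arrays were thus the highest, and their fitted log2 ratio was 0.25 ± 0.09 (SE, n = 2), with a limma adjusted p of 0.47. Acta2 probe 2 (A_52_P210078) had 0.26 and -0.35 on the fl26 arrays, 0.14 and -0.19 on the svb9 arrays and -0.38 on old array 1. The fl26 arrays lay at opposite signs for this probe, so both probes of the gene agreed on fl26 array 1 and parted on fl26 array 2. With outlier spots kept, probe 1 had -0.29 and -0.26 on the old arrays, with a mean of -0.27 and a 95% interval from -0.47 to -0.07, and probe 2 a mean of -0.50, with limma adjusted p of 0.28 and 0.31. Acta2 probe 3 (A_52_P239556) was the only tested Acta2 probe with values on both old arrays, -0.17 and -0.45, and was well above background in red on old array 2 only. Its 6 values put both old arrays at -0.17 or lower, fl26 array 2 at -0.24 and the remaining arrays between 0.06 and 0.16, and the fitted log2 ratio in old wild type was -0.31 ± 0.11 (SE, n = 2), with a limma adjusted p of 0.37.

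Actg2 encodes the gamma actin of visceral smooth muscle. Its probe (A_51_P241269) had log2 ratios of 0.16 and 0.40 on the fl26 arrays, 0.18 and 0.25 on the svb9 arrays and -0.04 on old array 1. All 4 transgenic arrays lay above 0 and the old array just under it. With the outlier spot kept, the old arrays had -0.16 and 0.27, and their mean turned from -0.04 to 0.06. The fitted log2 ratio was 0.28 ± 0.09 (SE, n = 2) in fl26, with a limma adjusted p of 0.42, and 0.21 ± 0.09 (SE, n = 2) in svb9, with a limma adjusted p of 0.98. The difference between fl26 and svb9 was 0.07, with a 95% interval from -0.26 to 0.39. Smooth muscle, skeletal and cytoplasmic actins are close relatives, and how far these probes also bind one another's RNA was not tested.

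Myh11 encodes the smooth muscle myosin heavy chain, the motor of contraction and a marker of mature smooth muscle. Its probe (A_51_P362429) had log2 ratios of 0.09 and -0.06 on the fl26 arrays, 0.19 and -0.14 on the svb9 arrays and 0.54 on old array 1. Both transgenic groups straddled 0, and the fitted log2 ratios were 0.01 ± 0.11 (SE, n = 2) in fl26 and 0.02 ± 0.11 (SE, n = 2) in svb9. The value of 0.54 in old wild type comes from 1 array, with a limma adjusted p of 0.31. With the outlier spot of old array 2 kept, the old arrays had 0.40 and 0.12 and their mean was 0.26 ± 0.12 (SE, n = 2).

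Among the actin-binding proteins, Cnn1 encodes calponin, which restrains the actomyosin motor. Its probe (A_51_P350817) had log2 ratios of -0.03 and -0.18 on the fl26 arrays, 0.22 and 0.10 on the svb9 arrays and 0.47 on old array 1. The fl26 arrays lay below 0 and the svb9 arrays above it without overlap, and the difference of fl26 from svb9 was -0.27, with a 95% interval from -0.57 to 0.04 and a limma adjusted p of 1.0. The old value also rests on 1 array. With the outlier spot kept, the old arrays had -0.05 and -0.52 and the mean turned from 0.47 to -0.29 ± 0.13 (SE, n = 2), so the sign of Cnn1 in old wild type depends on that spot and on the normalization fitted with it.

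Tagln encodes transgelin, also called SM22 alpha, an abundant actin-binding protein of smooth muscle. Tagln probe 1 (A_51_P450527) had log2 ratios of -0.14 and -0.92 on the fl26 arrays, -0.12 and -0.19 on the svb9 arrays and -0.44 on old array 2. Tagln probe 2 (A_52_P517683) had 0.11 and 0.39 on the fl26 arrays, 0.25 and 0.61 on the svb9 arrays and -0.18 on old array 1. All 5 values of the first probe were negative, whereas the second was positive on the 4 transgenic arrays. With outlier spots kept, the first had 0.61 and -0.82 on the old arrays, at opposite signs. In fl26 the fitted log2 ratios were -0.53 ± 0.19 (SE, n = 2) and 0.25 ± 0.13 (SE, n = 2), with limma adjusted p of 0.45 and 0.57. The direction of Tagln in fl26 and svb9 therefore differs between its probes and is not settled.

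Lmod1 encodes leiomodin, which nucleates actin filaments in smooth muscle. Its probe (A_51_P429567) had log2 ratios of 0.28 and -0.04 on the fl26 arrays, 0.18 and 0.33 on the svb9 arrays and -0.02 and -0.26 on the old arrays. Both svb9 arrays lay above both old arrays, of which 1, old array 2, measured the gene well above background in red. The difference of old wild type from svb9 was -0.40, with a 95% interval from -0.77 to -0.02 and a limma adjusted p of 1.0. Smtn encodes smoothelin, a cytoskeletal protein of contractile smooth muscle. Its probe (A_51_P479786) was well above background in red on neither old array and had log2 ratios between -0.17 on old array 2 and 0.20 on svb9 array 2. The fl26 and svb9 values of Smtn overlapped, with fitted log2 ratios to young wild type of 0.05 and 0.06. In old wild type the fitted value was -0.05, but red signal gives only a bound there, too high to give a fold. The order of the old values against fl26 and svb9 cannot be read.

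Des encodes desmin, the intermediate filament protein of muscle. Its probe (A_51_P335969) was negative on all 6 arrays, with log2 ratios of -0.37 and -0.27 on the fl26 arrays, -0.03 and -0.20 on the svb9 arrays and -0.25 and -0.11 on the old arrays, of which old array 1 was not well above background in red. The fl26 arrays were the lowest, and the fitted log2 ratio in fl26 was -0.32, with a 95% interval from -0.52 to -0.11. This was the smallest adjusted p of a member in fl26, 0.31 by limma. The differences of fl26 from svb9, -0.20, and of old wild type from fl26, 0.14, had 95% intervals that included 0. A dye effect that acts alike on every array would also give 6 values of 1 sign and was not tested.

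Mylk encodes myosin light chain kinase, which starts contraction. Mylk probe 1 (A_52_P575217) had log2 ratios of 0.34 and 0.53 on the fl26 arrays, 0.12 and 0.64 on the svb9 arrays and 0.37 on old array 1. Mylk probe 2 (A_52_P145912) had 0.13 and -0.78 on the fl26 arrays, -0.05 and -0.51 on the svb9 arrays and -0.23 and -0.85 on the old arrays. The first was positive on all 5 arrays with a value and the second negative on 5 of 6, although the file assigns both to the same transcript. Mylk probe 3 (A_51_P272407), for a cDNA clone, was close to background and lay between -0.13 and 0.24. In fl26 the fitted log2 ratio was 0.44 ± 0.14 (SE, n = 2) for probe 1 and -0.32 ± 0.25 (SE, n = 2) for probe 2, with limma adjusted p of 0.42 and 0.71. The locus also gives rise to telokin, a short product of the kinase gene, and which products each probe binds was not tested.

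Myocd encodes myocardin, the coactivator of serum response factor that switches the contractile genes on. Myocd probe 1 (A_51_P469942) had log2 ratios of 0.01 and 0.28 on the fl26 arrays, 0.08 and -0.20 on the svb9 arrays and -0.07 and -0.01 on the old arrays. Myocd probe 2 (A_52_P557424) lay between -0.13 and 0.08 over the 6 arrays. Both probes were well above background in red on neither old array, so their old values have only a bound there and their order against fl26 and svb9 cannot be read. The bound on the old values was too high to give a fold. The fl26 and svb9 values of probe 1 overlapped, as did those of probe 2. In red, probe 1 was not well above background on svb9 array 2, nor was probe 2 on fl26 array 2 and svb9 array 2. The overlap thus rests in part on values near background.

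**Figure D3:**
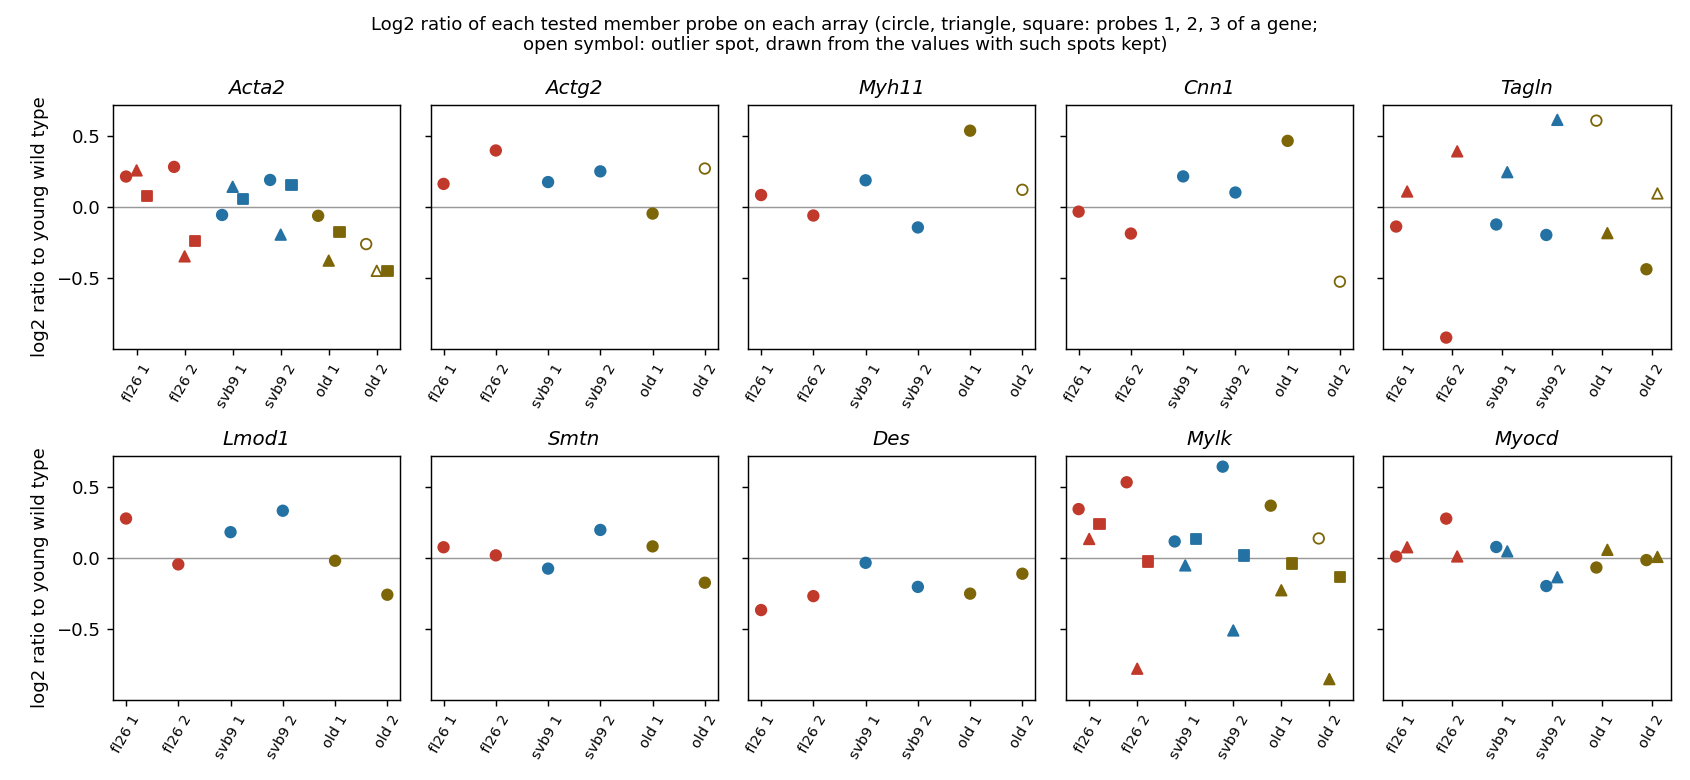
Log2 ratio to young wild type of each tested member probe on each of the 6 arrays, in 1 panel per gene, with colours for the groups and a circle, triangle or square for probes 1, 2 and 3 of a gene. Open symbols are outlier spots, drawn from the values with such spots kept. Des lies below 0 on all 6 arrays, and probes of Tagln and of Mylk part most on fl26 array 2 and svb9 array 2.

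Some pairs of probes for the same gene parted more on fl26 array 2 and svb9 array 2 than on fl26 array 1 and svb9 array 1, which had more probes well above background in red. This did not hold for every pair, since Acta2 probes 2 and 3 differed by 0.18 on fl26 array 1 and by -0.11 on fl26 array 2, and Acta2 probes 1 and 3 by -0.11 on svb9 array 1 and 0.04 on svb9 array 2. Mylk probe 1 exceeded probe 2 by 0.21 on fl26 array 1 and 0.17 on svb9 array 1, but by 1.31 on fl26 array 2 and 1.15 on svb9 array 2. Tagln probe 1 fell below probe 2 by 0.25 and 0.37 on fl26 array 1 and svb9 array 1, and by 1.31 and 0.81 on fl26 array 2 and svb9 array 2. Genes with 2 probes, both well above background in both channels, had a median absolute difference between them of 0.11 and 0.09 on fl26 array 1 and svb9 array 1, against 0.28 and 0.23 on fl26 array 2 and svb9 array 2. On fl26 array 2, 0.69% of 3037 such genes differed by as much as Mylk and 0.72% by as much as Tagln. The Acta2 probes 1 and 2 differed by 0.63 there, a size that 15.1% of those genes reached. The part of red signal in these differences was not tested.

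The 10 genes were also summarised as a group, each gene being represented by its brightest tested probe. In fl26 their median log2 ratio was 0.08, with 7 genes above 0 and 3 below, while over 20996 genes the median was 0.0036 and 51.1% were above 0. In svb9 the median of the 10 genes was 0.07, also with 7 above and 3 below, beside a median of 0.00039 over all genes. In old wild type it was -0.04, with 3 above and 7 below, beside -0.01 over all genes. That value turned to 0.16 with a strict filter on dim probes and was -0.22 from the Feature Extraction ratios and -0.26 without old array 1. Each comparison is against young wild type, so the values are set side by side only. With extraction date as a term the medians were 0.08 (fl26), 0.07 (svb9) and -0.06 (old wild type).

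Array by array, the median of the members was 0.08 and -0.01 on the fl26 arrays, 0.10 and 0.15 on the svb9 arrays and -0.02 (9 genes) and -0.17 (5 genes) on the old arrays. The fl26 arrays lay on either side of 0, and so the group median of fl26 was not repeated on its second array. Between groups of the same extraction date, svb9 array 1 minus fl26 array 1 had a median of 0.01 over 10 genes, with 6 higher and 4 lower. Old array 1 minus fl26 array 2 had a median of 0.02 over 9 genes, and old array 2 minus svb9 array 2 one of -0.24 over 5 genes, of which 3 were lower. The last value rests on Tagln, Lmod1, Smtn, Des and Myocd, because the others were left out on old array 2. Of these, Smtn and Myocd were not well above background in red on old array 2, nor was Myocd on svb9 array 2. On old array 1, Lmod1, Smtn, Des and Myocd were not well above background in red.

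The groups of the red channel were also compared with each other, where a fixed dye effect cancels. Of 16 member probes, 0 were called between fl26 and svb9, between old wild type and fl26 and between old wild type and svb9, and 0 of all probes (0%) were called in these comparisons by limma. At an unadjusted p under 0.05 there were 0 of 16 member probes (0%) between fl26 and svb9, beside 2.18% of all probes. There were 2 of 16 (12.5%) between old wild type and fl26, beside 7.74% of all probes, and these were Myh11 and Cnn1, of which the old value of Cnn1 turns sign with the outlier spot kept. After normalization, Cnn1 had on old array 1 its lowest green level, a log2 intensity of 11.85, and also its lowest red level, 12.32. Between old wild type and svb9 there were 4 of 16 (25.0%), beside 4.71% of all probes, with Myh11 higher and Acta2 probe 3, Tagln probe 2 and Lmod1 lower in old wild type. For Myh11, Cnn1 and Tagln probe 2 the old value came from 1 array. The median difference of the 10 genes was -0.01 for fl26 minus svb9, -0.08 for old wild type minus fl26 and -0.08 for old wild type minus svb9.

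Other genes of the smooth muscle programme, 122 on the array and 110 of them tested, also had 0 called by limma in every comparison. At an unadjusted p under 0.05 there were 23 in fl26, beside 10.2% of all probes, and 9 in svb9, beside 4.45%. In old wild type there were 17 of 109, beside 11.4% of all probes. In fl26, 67 lay above 0 and 43 below with a median of 0.04, in svb9 72 above and 38 below with a median of 0.07, and in old wild type 48 above and 61 below with a median of -0.04. Srf, which encodes serum response factor itself, had log2 ratios of 0.50 and 0.27 on the fl26 arrays, 0.27 and 0.31 on the svb9 arrays and 0.08 and 0.13 on the old arrays. It was positive on all 6 arrays, and its fitted value of 0.38 ± 0.08 (SE, n = 2) in fl26 had a limma adjusted p of 0.27. Mrtfa, a coactivator related to myocardin, lay between -0.16 and 0.24.

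Genes that act on the myosin light chain did not pass the test either. Myl9, the regulatory light chain of smooth muscle myosin, had log2 ratios of -0.03 and -0.85 on the fl26 arrays, -0.11 and -0.38 on the svb9 arrays and -0.92 on old array 2. All 5 were negative. Ppp1r14a, the phosphatase inhibitor CPI-17, had -0.29 and -0.21 on the fl26 arrays, 0.08 and 0.35 on the svb9 arrays and 0.07 and -0.27 on the old arrays. The difference of fl26 from svb9 for Ppp1r14a was -0.47 ± 0.16 (SE), with a limma adjusted p of 1.0. Ppp1r12b, a targeting subunit of myosin phosphatase, was negative on all 6 arrays, between -0.54 and -0.09, and among the lowest in each of the 3 groups.

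The highest log2 ratios in fl26, among listed genes with the same sign on both arrays, were those of Atp2a2, the calcium pump of the sarcoplasmic reticulum, at 0.70 ± 0.17 (SE, n = 2), Vim, the intermediate filament vimentin, at 0.59 ± 0.15, Itgbl1 at 0.52 ± 0.10, Cnn3, a calponin of many cell types, at 0.49 ± 0.11, and Myl12b, a light chain, at 0.48 ± 0.16. The lowest were Actb, cytoplasmic actin, at -0.50 ± 0.11, Myl9, Ppp1r12b, Ppp1r14a and Csrp1, a LIM domain protein, at -0.20 ± 0.19. Limma's adjusted p was 0.23 or higher for each of these named in fl26. Among the highest in svb9 were Itgbl1 at 0.42, Calm2, which encodes calmodulin, at 0.37, Sspn, a sarcoglycan partner, at 0.34, and Cnn3 at 0.31. The lowest in svb9 were Rock1, a protein kinase, at -0.36, Ppp1r12b at -0.30, Myl9 at -0.25, Gata6, a transcription factor, at -0.21, and Zyx, a focal adhesion protein, at -0.19. All of these had a limma adjusted p of 0.98.

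The old wild type genes were ranked in the same way, among listed genes with the same sign on both old arrays. Myl9 and Tpm2, each with a value on 1 old array, were therefore not ranked. The highest were Calm3, also calmodulin, at 0.72 ± 0.19 (SE, n = 2), Itga7, a laminin receptor subunit, at 0.45 ± 0.10, Ppp1r12c at 0.37 ± 0.11, Kcnma1, the large-conductance potassium channel, at 0.32 ± 0.08, and Cnn3 at 0.28 ± 0.11. The lowest were Synm, the intermediate filament synemin, at -0.54 ± 0.20, Ppp1r12b at -0.37 ± 0.13, Utrn, utrophin, at -0.30 ± 0.20, Cald1, caldesmon, at -0.28 ± 0.16, and Itpr1, a calcium release receptor, at -0.28 ± 0.22. Limma's adjusted p was 0.22 or higher for each. Itga7, Kcnma1, Synm, Ppp1r12b, Utrn, Cald1 and Itpr1 were well above background in red on 5 of the 6 arrays. Of the other genes listed by name, Kcnmb1, the channel's beta subunit, and Adra1a, the receptor through which noradrenaline contracts the prostate, had fitted values between -0.18 and -0.01 in the 3 comparisons. In red, Kcnmb1 was well above background on 1 array and Adra1a on 3. Synpo2 had fitted values between -0.02 and 0.24. Tpm2, a tropomyosin, had fitted values between 0.15 and 0.55, with 1 array each in svb9 and old wild type. Between the red groups, Klf4, a repressor of contractile genes, was 0.47 higher in fl26 than in svb9, and Itgbl1 and Ilk were 0.63 and 0.59 lower in old wild type than in fl26. None of these differences passed, with limma adjusted p of 1.0, 0.49 and 0.51.

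Markers of other cells that share the tissue or its surroundings moved between arrays. The 14 fibroblast markers had a median log2 ratio of 0.74 on fl26 array 1, -0.07 on fl26 array 2, 0.24 and 0.02 on the svb9 arrays and 0.07 and -0.15 on the old arrays. The 8 pericyte markers, of which pericytes share Acta2 with smooth muscle, had 0.25 and -0.09 on the fl26 arrays and between -0.17 and 0.10 on the others. Both lists were thus highest on fl26 array 1, where the member median was 0.08, and so were the macrophage, basal epithelium and endothelial markers, at 0.36, 0.29 and 0.25. Of the fibroblast markers 13 of 14 lay above 0 in fl26 and 8 of 14 in svb9, and of the pericyte markers 5 of 8 and 4 of 8, with 0 genes of either list called. The summed normalized red intensity of the fibroblast markers was 11520 to 12836 on the fl26 arrays and 9869 to 10028 on the svb9 arrays. On the old arrays it was 7469 to 9367. Their summed green intensity, of young wild type RNA, itself went from 8915 to 11418 over the arrays. All 14 were well above background in green on every array, but in red between 5 and 14 were, depending on the array. The 21 skeletal muscle markers tested had medians of -0.11 and 0.11 on the fl26 arrays, -0.05 and 0.08 on the svb9 arrays and -0.10 and -0.09 on the old arrays. Within that list Myl1 and Myh4, proteins of fast striated fibres, went from -1.08 and -0.94 on svb9 array 1 to 1.36 and 1.26 on svb9 array 2. The part of these cell types in the members' values was not tested.

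Transcripts of prostate secretion were abundant in young wild type. All 6 markers of ventral prostate secretion were well above background in green on every array, and Sbp and Spink1, which encode secreted proteins, were saturated in green on all 6 and in red on 5, so that their ratios and any sum that holds them cannot be read as levels. Of 8 seminal vesicle and other lobe markers on the array, 2 were tested. The 10 luminal epithelium markers had medians of 0.48 on old array 1 and between -0.14 and 0.03 on the others. Epcam, Hoxb13 and Krt8, at 0.67, 0.48 and 0.51 on old array 1, had no value on old array 2. Krt18, at 0.75 on old array 2, had none on old array 1. The medians of the old arrays thus rest on different genes. The part of epithelial signal in the old arrays' member values was not tested.

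**Figure D4:**
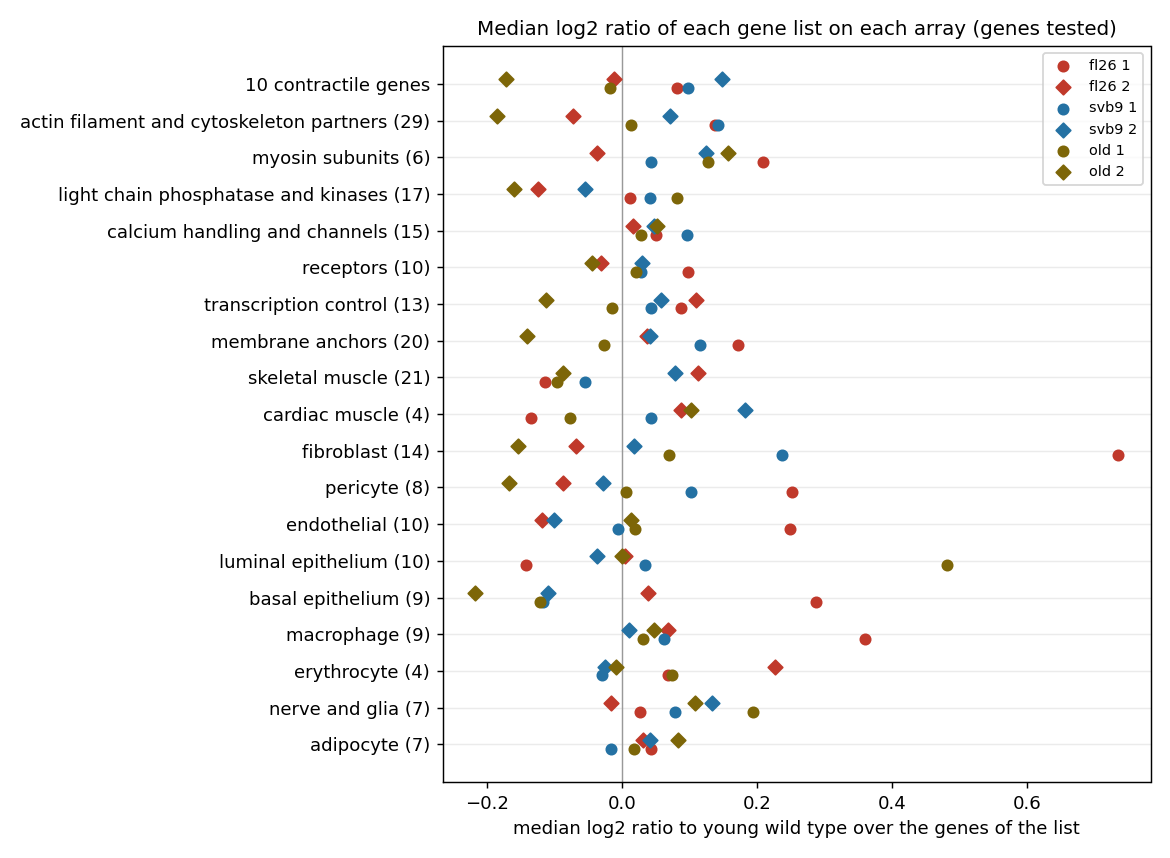
Median log2 ratio to young wild type of each gene list on each array, with colours for the groups, circles for array 1 and diamonds for array 2, and the number of genes tested in brackets. The contractile genes span -0.17 to 0.15, while the fibroblast markers reach 0.74 on fl26 array 1.

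Over the 6 arrays, the genes whose log2 ratios ran most like the mean of the members were Icmt, C030048B12Rik, TC1058073 (a transcript known by its cluster name), Sem1 and Dock5, with Pearson correlations of 0.988 to 0.996. Of 19375 genes compared, 239 had a correlation over 0.9. The points share arrays, red signal and extraction date, and the member mean on old array 2 rests on 5 genes, so the likeness is a description only. Sem1, a proteasome subunit, ranged from -1.16 on old array 2 to 0.15 on old array 1.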

How the data were processed

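The 6 two-colour arrays were analysed, 2 for each of 3 groups, all against young wild type RNA in green. Per the file headers, the deposited intensity values are the mean of each spot and the median of its local background in each channel, read with Feature Extraction A.7.5.1 and not normalized. Its deposited log10 ratios, which the software had corrected for background, spatial trend and dye per the file headers, served as an alternative. The series table holds them rounded: 0 values differed by over 0.01. Replicates were not pooled.

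From the intensities, log2 ratios were computed in R 4.3.3 with limma 3.58.1: normexp background correction (offset 50), loess per array, outlier spots left out, spots of a probe averaged. Of 43790 spots, 2256 were controls. A probe entered the test where both arrays of some group marked it well above background in 1 and the same channel. A limma model with 3 group means was fitted to all 6 arrays and adjusted by Benjamini-Hochberg over all tested probes, with a threshold of 0.05, two-sided. Green levels were taken after loess and Aquantile. The fit was tested on simulated data. The array number, 6, limits the precision. Probes were named through RefSeq accessions in a gene table (GRCm38.p6): 20716 matched, and 20458 kept the file's name. Older symbols of listed genes were updated.

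The members, lists and tests were chosen with earlier results of these data known. Named were all member probes and, of the other listed genes, those called, otherwise up to 5 highest and 5 lowest per comparison with the same sign on both arrays, of which those against young wild type and some between groups are printed, plus 10 fixed genes where tested (9 were; Pln was not tested). A gene that the rule names in svb9 is not reported here. Extraction date was tried as a term, and other background corrections, normalizations, filters, single arrays left out and the replicate number as a block as alternatives. Replicate numbers are shared between groups, but the labels describe no pairing.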

Additional observations from a re-analysis of the deposited data

Results flagged for a closer look

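After normalization, Cnn1 stood out in the green channel, where every array holds young wild type RNA. Its green log2 level was 11.85 on old array 1, while the 4 other arrays with a value lay between 12.52 and 12.61, so that the gap was 0.874 of the whole range. Not normalized, its green intensity was 5992 on old array 1 and between 6971 and 9108 on the other arrays. Its red intensity was 224 on old array 1 and 2080 or more on the others. Loess and Aquantile draw on both channels, and their part in the gap was not tested. Among the 16 green level series examined, that of Cnn1 was the only one with such a gap. How often such a gap arises by chance was not tested, so 1 among 16 is a description only. The series also share the same arrays.

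In 5 cases the arrays of a pair of groups lay on opposite sides of 0 for a member probe, and 0 of these differences passed the threshold by limma. How many of all tested probes do the same is not given here, so the 5 cases are a description only. Cnn1 was negative on both fl26 arrays and positive on both svb9 arrays, with a difference of -0.27 (limma adjusted p = 1.0). Acta2 probe 3 and Lmod1 were negative on both old arrays and positive on both svb9 arrays, with differences of old wild type from svb9 of -0.42 and -0.40 (limma adjusted p = 1.0 for each), and both were well above background in red on 1 of the 2 old arrays. Mylk probe 3 (old wild type minus svb9, -0.16, limma adjusted p = 1.0) and Myocd probe 1 (old wild type minus fl26, -0.18, limma adjusted p = 0.88) were well above background in red on neither old array, so the sign of their old values cannot be read. Mylk probe 3 was well above background in red on neither svb9 array as well, so the sign of its svb9 values cannot be read.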

How the results depend on the processing

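The count of 0 called member probes held in 107 of 108 combinations of comparison and alternative. The exception was a model in which the replicate number was a block, which called 1, Mylk probe 2 in old wild type (log2 ratio -0.54, limma adjusted p = 0.030). That block raised the calls over all probes from 14 to 999 in fl26, from 0 to 1211 in old wild type, and from 0 to 12, 10 and 25 in svb9, fl26 versus svb9 and old wild type versus fl26. Same-numbered arrays deviated together with r = 0.59 (fl26 and svb9), 0.33 (fl26 and old wild type) and 0.17 (svb9 and old wild type). In the labels they share only a number. By extraction date, fl26 array 1 goes with svb9 array 1, and svb9 array 2 goes with old array 2. Calls over all probes moved by over 1.5 times elsewhere too. In fl26 they were 121 with extraction date as a term, 47 with an offset of 10, 6 from the Feature Extraction ratios, 3 under the strict filter on dim probes and 2 without background correction. They were 0 with median centring, a variance trend or the fl26 arrays alone, and 0 or 1 with an array left out. In old wild type they were 689 with an offset of 10, 62 under the strict filter, 52 with the old arrays alone, 11 with the date, 8 with outlier spots kept and 2 without either fl26 array. With the date and with an offset of 10 they were 2 and 3 for fl26 versus svb9, and 5 and 5 for old wild type versus fl26.

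The median of the 10 genes stayed within the spread between replicates in 96 of 114 combinations; where it moved, the cause was not tested. With median centring it was 0.27 in fl26, -2.62 in old wild type, 0.17 for fl26 versus svb9, -2.85 for old wild type versus fl26 and -2.63 for old wild type versus svb9. The median of all tested probes then stood at 0.10, -0.38, 0.09, -0.52 and -0.42. From the Feature Extraction ratios it was -0.22 in old wild type, -0.23 for old wild type versus fl26 and -0.40 for old wild type versus svb9. Under the strict filter it was 0.16 in old wild type, where it changed sign, and 0.11 in svb9, and with an offset of 10 it was 0.10 in svb9. With single arrays left out it ranged from -0.012 (without fl26 array 1) to 0.083 in fl26, from 0.066 to 0.15 (without svb9 array 1) in svb9, and from -0.26 (without old array 1) to -0.031 in old wild type. For fl26 versus svb9 it ranged from -0.13 to 0.017, for old wild type versus fl26 from -0.22 to -0.079, and for old wild type versus svb9 from -0.28 to -0.062. Old wild type values are limited by red signal, with 3218 probes well above background on old array 1, and by outlier marks, which leave 8 of 16 member probes with 1 array; keeping those spots turned 2 signs.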
